A study of Mus musculus with 18 samples.

Results

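The regions described here are stretches of the mouse autosomes where both *Uhrf1* KO libraries of embryonic stem cells (mESCs) had an H3K9me3 peak and no wild-type or *Dhx9* KO library had one. They were selected on the measured peak calls: overlapping or touching peaks of 6 deposited lists were merged on chromosomes 1 to 19, and a merged region was kept when both *Uhrf1* KO lists and none of the other 4 had a peak in it. This left 1163 of 154338 merged regions, or 0.754%. Since the calls chose the regions, their reads and log2 folds are given as descriptions, with no test. The lists hold no reads outside peaks, so the level of these regions in wild-type and *Dhx9* KO cells has no value here.

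The study performed ChIP-seq with an antibody against H3K9me3 in E14TG2a cells, a line of mESCs grown in serum with LIF. Of its 18 samples, the 6 used here are wild-type, *Dhx9* KO and *Uhrf1* KO, with 2 libraries each, and the other samples were not analysed here. The *Uhrf1* KO lines were clonal lines made by CRISPR-Cas9 in cells that carry the inducible TetR-KRAB and *tetO*-eGFP heterochromatin reporter, so a feature of a clone and the loss of UHRF1 cannot be told apart. How the *Dhx9* KO cells were made is not given in the sources used here. H3K9me3 peaks do not show whether *Uhrf1* is intact, so the knockout itself was not checked.

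H3K9me3 marks heterochromatin and is laid down at endogenous retroviruses and young LINE-1 elements by SETDB1, which KRAB zinc finger proteins recruit through TRIM28. UHRF1 is an E3 ubiquitin ligase that binds hemimethylated CpG sites and H3K9 methylation and brings DNMT1 to newly replicated DNA, so cells without it lose most of their CpG methylation. Intracisternal A particles (IAPs) are long terminal repeat (LTR) retroviruses, and L1MdTf is a young LINE-1 subfamily whose promoter is a tandem array of short monomers. Both are known to carry H3K9me3 and dense CpG methylation in mESCs.

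The lists differ in ways that touch every count below. On the autosomes, the *Uhrf1* KO lists held 67953 and 90949 peaks with 6542496 and 16558383 ChIP reads, and the other lists held 114056 to 124071 peaks with 19269137 to 20600757 ChIP reads. The log2 folds imply ChIP libraries of 0.45 and 0.843 times the size of wild-type replicate 1 for *Uhrf1* KO replicates 1 and 2, and of 0.960 to 1.12 times for the others. Where a peak had the same limits as a peak of wild-type replicate 1, the background reads were equal in all 9157, 5772 and 3961 such peaks of wild-type replicate 2 and the *Dhx9* KO lists. In the *Uhrf1* KO lists they were equal in 78 of 1910 and 125 of 6149, with median ratios of 0.585 and 0.595. The *Uhrf1* KO lists therefore share a background of their own. The study's methods name wild-type input as the background of each library and subsampling to like depth, which these background reads and library sizes do not match. The series also holds an input sample labelled *Uhrf1* KO, and whether it was the background of the *Uhrf1* KO lists was not tested. That background difference and the genotype cannot be told apart.

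Sequences of 6 of these regions follow, and short stretches that recur among the regions are printed further below. The 6 were picked for high fold or most partners, so they are not typical of the whole set. Each line gives 300 bases around the centre of a region, 5′ to 3′ on the plus strand of mm10 (GRCm38), in lower case with CpG sites in capitals. The first pair are the regions of 2 kb or longer with the highest log2 fold, measured as the lower of the 2 *Uhrf1* KO values, and both lie between genes.
chr3:104977851-104978150: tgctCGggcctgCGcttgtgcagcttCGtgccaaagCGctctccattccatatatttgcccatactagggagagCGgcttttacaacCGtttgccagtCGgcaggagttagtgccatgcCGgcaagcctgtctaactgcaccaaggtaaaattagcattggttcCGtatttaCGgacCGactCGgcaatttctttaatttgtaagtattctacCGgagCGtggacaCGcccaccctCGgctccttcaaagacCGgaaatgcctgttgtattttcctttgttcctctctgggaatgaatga
chr1:86318951-86319250: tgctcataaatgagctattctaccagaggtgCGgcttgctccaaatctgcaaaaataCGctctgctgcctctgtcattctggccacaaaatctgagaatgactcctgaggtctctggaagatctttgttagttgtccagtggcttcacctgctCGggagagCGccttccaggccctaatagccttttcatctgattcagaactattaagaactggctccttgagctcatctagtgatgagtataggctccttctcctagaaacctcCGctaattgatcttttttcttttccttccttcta

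The second pair are the regions with the highest log2 fold at a promoter of a protein-coding gene, at *Scgb1b29*, a secretoglobin gene, and at *Tmeff2*, a gene for a transmembrane protein with follistatin-like domains.
chr7:32441551-32441850: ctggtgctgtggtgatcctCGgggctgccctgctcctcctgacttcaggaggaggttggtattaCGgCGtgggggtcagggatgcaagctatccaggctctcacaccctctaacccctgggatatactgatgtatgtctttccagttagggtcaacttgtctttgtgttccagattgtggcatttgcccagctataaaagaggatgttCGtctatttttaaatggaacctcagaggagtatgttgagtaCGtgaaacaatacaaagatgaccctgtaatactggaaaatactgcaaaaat
chr1:50900251-50900550: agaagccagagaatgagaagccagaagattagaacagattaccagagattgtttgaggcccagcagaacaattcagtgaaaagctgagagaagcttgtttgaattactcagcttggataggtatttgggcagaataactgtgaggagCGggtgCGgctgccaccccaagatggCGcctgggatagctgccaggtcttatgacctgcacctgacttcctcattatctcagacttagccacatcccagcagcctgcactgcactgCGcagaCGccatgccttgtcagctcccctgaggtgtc

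The third pair stand for the 2 largest groups of regions that share sequence with each other, and each is the region with the most partners in its group.
chr11:92106251-92106550: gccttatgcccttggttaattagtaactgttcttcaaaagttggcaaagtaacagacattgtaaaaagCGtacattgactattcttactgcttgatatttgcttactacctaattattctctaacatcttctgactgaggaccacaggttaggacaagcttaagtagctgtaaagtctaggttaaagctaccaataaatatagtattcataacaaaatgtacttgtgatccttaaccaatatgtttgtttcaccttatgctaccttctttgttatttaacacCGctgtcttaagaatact
chr12:20496951-20497250: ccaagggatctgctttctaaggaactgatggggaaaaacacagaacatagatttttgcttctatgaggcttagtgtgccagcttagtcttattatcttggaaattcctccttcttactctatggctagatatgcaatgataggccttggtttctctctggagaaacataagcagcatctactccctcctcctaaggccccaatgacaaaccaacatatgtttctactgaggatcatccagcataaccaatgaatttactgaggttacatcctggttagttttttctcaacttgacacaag

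The centre of the chromosome 3 region held 17 CpG sites in 300 bases, against 5 in the chromosome 1 region with the next highest fold. Both promoter sequences held 5 each, and those of the groups held 2 and 0.

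Across the gained regions, the signal was modest, and its median log2 fold was alike in the 2 *Uhrf1* KO libraries. They had a median length of 2200 bp (200 to 10400 bp) and covered 2.85 Mb. In *Uhrf1* KO replicate 1 they held 14 to 392 ChIP reads (median 36), against a median of 17 background reads, and the log2 fold over background ranged from 0.27 to 7.18 (median 1.69). In *Uhrf1* KO replicate 2 they held 25 to 296 ChIP reads (median 63), against a median of 16 background reads, and the log2 fold ranged from 0.26 to 7.11 (median 1.64). Per kb called, the medians were 22.1 and 40.4 ChIP reads, below the 25 and 48.0 over all 46135 regions with a peak in both *Uhrf1* KO lists. Median background reads per kb were 10.0 and 10.6, against 12.5 and 12.9 over those regions. The median log2 folds over all regions with both peaks were 1.64 and 1.64, so the gained regions were of usual fold but lower in both reads and background.

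The log2 folds of the replicates differed by a median of 0.35 and by at most 0.5 in 756 regions (65%), with a Spearman correlation of 0.68 over the 1163 regions, which share their background reads. Replicate 1 was the higher in 621 regions, and in 2 regions the peaks of the 2 libraries shared no base. Of the bases called in either library, a median of 56.5% were called in both, and 92 regions had equal limits. Both folds were at least 2 in 261 regions (22.4%), at least 3 in 58 regions, and below 1 in 96. In each list, 6 regions had no background read, so their folds rest on a stand-in for that count and are not comparable with the rest.

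**Figure D1:**
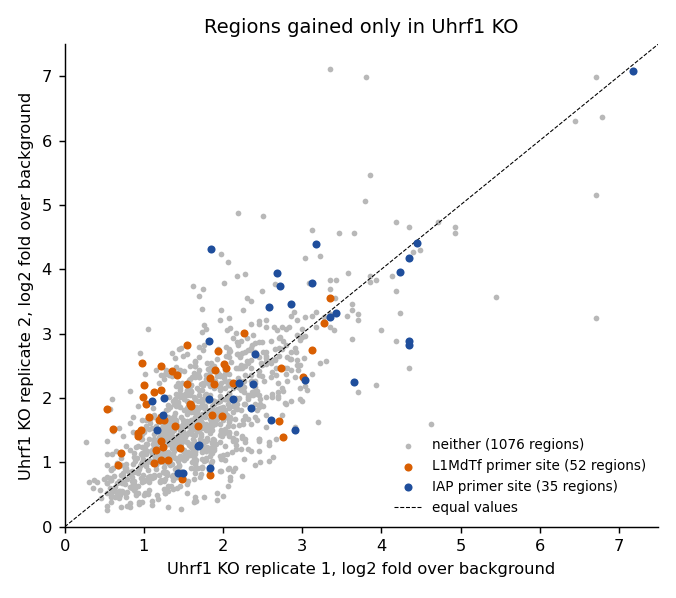
Log2 fold of ChIP over background in *Uhrf1* KO replicate 1 (x axis) and replicate 2 (y axis), 1 point per region gained only in *Uhrf1* KO, coloured by the study's L1MdTf or IAP primer sites it holds, with a dashed line of equal values. The points spread along the line (Spearman correlation 0.68), and those with IAP primer sites reach high folds more often than those with L1MdTf sites (medians 2.58 and 2.28 against 1.41 and 1.85).

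The calls near the threshold show how the rule cuts. The region inside it with the highest FDR, chr12:113736401-113738600, had 44 ChIP and 50 background reads in *Uhrf1* KO replicate 1 (FDR 0.0486, log2 fold 0.36) and 50 and 26 in replicate 2 (FDR 0.00245, log2 fold 0.60). The lowest log2 fold was that of chr11:90242001-90245800, with 49 ChIP and 49 background reads in replicate 1 (0.54) and 93 and 61 in replicate 2 (0.26). In only 22 and 13 regions was the FDR above 0.01 in replicates 1 and 2. Just outside were regions with both *Uhrf1* KO peaks and a peak in a single further list: 281 for wild-type replicate 1, 318 for wild-type replicate 2, 232 for *Dhx9* KO replicate 1 and 1343 for *Dhx9* KO replicate 2. The lone *Dhx9* KO replicate 2 peaks had a median of 81 ChIP and 36 background reads and a log2 fold of 1.21. Without *Dhx9* KO replicate 2 the rule gave 2631 regions, so the number gained rests on that library. Without *Uhrf1* KO replicate 1 or 2 it gave 4521 or 6301 regions.

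GC content moved with these calls. At peaks of equal limits, the ChIP reads of *Uhrf1* KO replicate 1 over those of wild-type replicate 1 fell from a median of 0.616 in the quintile of lowest GC to 0.409 in the highest, and those of *Uhrf1* KO replicate 2 fell from 1.09 to 0.931. For *Dhx9* KO replicate 2 the ratio fell from 1.15 to 0.891, and for wild-type replicate 2 it lay between 0.944 and 0.956 throughout. The gained regions had a mean GC content of 43.2%, beside 45.5% over all merged regions, and the regions kept out by a lone *Dhx9* KO replicate 2 peak had 42.0%. This direction rests on *Uhrf1* KO replicate 1, since without that library the gained regions had 46.0%. The part of GC content in the gain was not tested.

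L1MdTf sequence recurred among the gained regions. The study's L1MdTf forward and reverse primers, and the IAP LTR site below, are shown because they tie regions to a named repeat family, again with CpG sites in capitals.
L1MdTf forward: cagCGgtCGccatcttg
L1MdTf reverse: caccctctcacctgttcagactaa
IAP LTR: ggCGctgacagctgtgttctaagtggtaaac

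An exact site of the L1MdTf forward primer, on either strand, was found in 49 gained regions (4.21%), beside 1.00% of all merged regions. The share was 4.26% of the 940 regions gained in both knockouts, 0.139% of the 3587 gained only in *Dhx9* KO, 0.0273% of the 7334 lost only in *Uhrf1* KO and 1.49% of the 34626 called in all 6 lists. The gained regions held 42.1 forward sites per Mb, against 4.4 per Mb over all merged regions, so the difference was also there per base covered. The 49 regions held 120 sites, and 28 of them held 2 or more, up to 7. The reverse primer matched 40 gained regions (3.44%), and 37 regions held both. Stricter settings lowered the forward share: it was 2.15% with an FDR of at most 1e-10 in all lists, 2.44% with a log2 fold of at least 1, and 2.24% with an equal number of peaks per list, against 1.45%, 1.26% and 1.16% of all merged regions. With that FDR in the *Uhrf1* KO lists alone it was 1.82%.

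The 52 regions with either L1MdTf primer site had a mean GC content of 49.0%, 25.7 CpG sites per kb and a median length of 1800 bp, against 10.9 CpG sites per kb over all 1163. Their log2 folds were 0.54 to 3.35 (median 1.41) in *Uhrf1* KO replicate 1 and 0.75 to 3.56 (median 1.85) in replicate 2. Of these regions, 34 were centred between genes and 18 in introns. The L1MdTf share rests on *Uhrf1* KO replicate 2: with the rule applied without that library it was 0.952%, and without *Uhrf1* KO replicate 1 it was 5.31%.

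Over the genome, the lists differed at L1MdTf copies beyond the gained regions. Of 6907 forward sites on the autosomes, 1409 (20.4%) and 2899 (42.0%) lay in peaks of *Uhrf1* KO replicates 1 and 2. In wild-type cells these were 1123 (16.3%) and 1342 (19.4%), and in *Dhx9* KO cells 1008 (14.6%) and 1534 (22.2%). As shares of all copies, *Uhrf1* KO replicate 1 lay within the range of the other lists and replicate 2 above it. Per Mb called, both *Uhrf1* KO lists (7.10 and 8.65 sites) were above the other 4 (2.48 to 3.90 sites). The *Uhrf1* KO lists called less, 198 and 335 Mb against 394 to 412 Mb. The IAP LTR site had a like order per Mb called (7.07 and 5.12 against 2.69 to 3.56), so it was not particular to L1MdTf. Only 120 of the 6907 L1MdTf forward sites (1.74%) lay in the gained regions, while 1055 lay in regions called in all 6 lists and 3697 in no region.

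**Figure D2:**
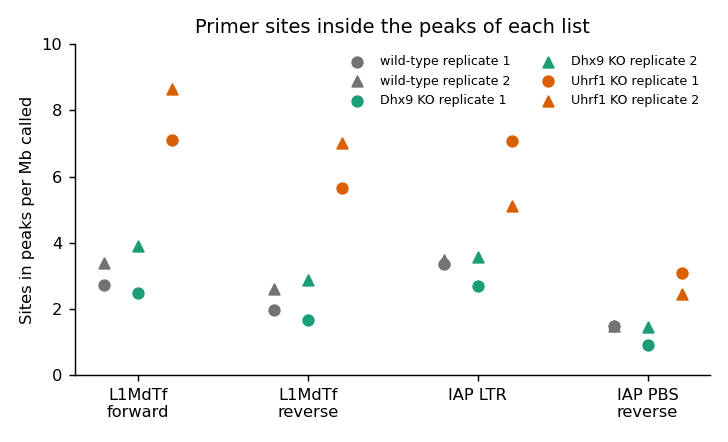
Sites of 4 of the study's primers inside the peaks of each list, as sites per Mb called (y axis), with circles for replicate 1 and triangles for replicate 2. For the L1MdTf forward primer the *Uhrf1* KO lists reach 7.10 and 8.65 sites per Mb, and the other 4 lists stay between 2.48 and 3.90. For the IAP LTR primer the *Uhrf1* KO lists reach 7.07 and 5.12, and the other 4 stay between 2.69 and 3.56.

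IAP sequence was found in fewer of the gained regions but in more of the strongest. The IAP LTR site is that of a primer for bisulfite-converted DNA, found by reading every C as T, and it had the same genomic sequence in all 28 regions (2.41%) that held it. The share was 1.04% of all merged regions, 3.32% of those called in all 6 lists, 1.49% of those gained in both knockouts and 0.0409% of those lost only in *Uhrf1* KO, and 0 of the 3587 regions gained only in *Dhx9* KO held it. With all IAP and IAPEY primers, 35 gained regions held a site, and none of them held an L1MdTf site. Their median log2 folds were 2.58 (1.10 to 7.18) and 2.28 (0.83 to 7.08), and 13 of the 100 gained regions with the highest lower fold were among them, beside 3 with L1MdTf sites. Median background reads per kb in these 35 were 5.62 and 5.00 beside 10.0 and 10.6 over all gained regions. Neither major satellite primer matched a gained region. The forward primer matched only 5 and the reverse only 1 of all 154338 merged regions, so the absence says little. The IAP LTR share fell to 0.492% without *Uhrf1* KO replicate 2, below the 1.04% of all merged regions of the 6 lists. Its direction against all merged regions also turned under 2 further settings. It was 1.33% against 1.35% with a log2 fold of at least 1 and 1.05% against 1.24% with an equal number of peaks per list.

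**Figure D3:**
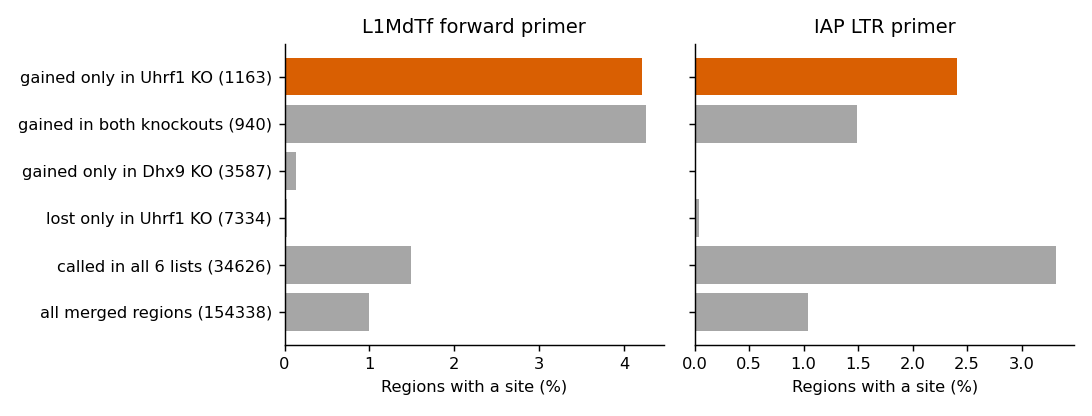
Share of regions with an exact site of the L1MdTf forward primer (left) and the IAP LTR primer (right), in percent (x axis), for the regions gained only in *Uhrf1* KO and 5 other sets with their number of regions in brackets. L1MdTf sites are found in 4.21% of the gained regions and 1.00% of all merged regions, and IAP LTR sites in 2.41% and 1.04%. The IAP LTR order turns with an equal number of peaks per list (1.05% and 1.24%) and with a log2 fold of at least 1 (1.33% and 1.35%). Without *Uhrf1* KO replicate 2 the gained shares were 0.952% (L1MdTf) and 0.492% (IAP LTR).

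Other short sequences recurred. The first of the pair below, read on the opposite strand, overlaps the end of the IAP LTR site printed above, and the other matched no primer. The 30-base stretch with the strongest regions, and the stretch with the most gained regions, read as follows.
found in 35 regions: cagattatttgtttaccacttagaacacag
found in 45 regions: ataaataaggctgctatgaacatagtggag
The stretch found in 35 regions (3.01%, beside 1.94% of all merged regions and 6.43% of those called in all 6 lists) was in 15 of the 100 strongest, with median log2 folds of 2.50 and 2.62, and 16 of the 35 also held an IAP primer site. The stretch found in 45 regions (3.87%, beside 2.88% of all merged regions and 4.47% of those called in all 6 lists) was in 2 of the 100 strongest. Its median log2 folds were 1.74 and 1.5. A further stretch of 30 bases was in 29 regions (2.49%), beside 0.535% of all merged regions, 1.61% of those called in all 6 lists and 0.106% of those gained in both knockouts, and 13 of the 29 held an IAP primer site. All stretches were picked for recurring in many gained regions, which favours an excess over all merged regions. Some were still rarer, at 2.67% and 2.58% of gained regions beside 3.75% and 3.92% of all merged regions. The remaining ones were at 3.35%, 3.35% and 1.98% beside 0.643%, 3.02% and 0.878%. In regions called in all 6 lists they were at 0.887%, 5.33% and 2.62%. The first of these holds the L1MdTf reverse primer sequence, and all 39 of its gained regions had an L1MdTf site. It is therefore not separate from the L1MdTf result above.

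Shared sequence went beyond these stretches. At 90% identity over 500 bases or more, 257 gained regions (22.1%) matched another gained region, and 218 of them were linked in 1 group, in which 40 held L1MdTf and 18 IAP sites. The next group had 5 regions. Matching was done only among gained regions, so the 22.1% has no like share over other sets. Regions with under 50% of their 31-base words found once in the genome were 24.7% of gained regions. They were 16.0% of all merged regions and 25.5% of those called in all 6 lists. Regions that matched another had median log2 folds of 1.90 and 2.03, against 1.64 and 1.54 for the rest, and they made up 47 of the 100 strongest. Reads from such copies can be placed at any of them by the aligner, so a gain at 1 copy can stand for another, and regions that share sequence are not independent.

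Repeat content was above that of all merged regions and rose with strength. The gained regions were 46.9% ± 28.3 (SD, n = 1163) soft-masked repeats, beside 37.0% over all merged regions and 43.2% in those called in all 6 lists. The share was 44.1% in those gained in both knockouts, 34% in those gained only in *Dhx9* KO and 25.6% in those lost only in *Uhrf1* KO. From the quintile of lowest to that of highest lower fold, the masked share went from 32.5% to 65.9% and the share of 31-base words found once in the genome from 83.9% to 43.3%. Background reads per kb in *Uhrf1* KO replicate 1 went from 14.4 to 6 over the same quintiles, and median length from 3000 to 1400 bp. Regions called in all 6 lists had the same course, from 26.2% to 61.8% masked and from 16.2 to 9.59 background reads per kb, so it is not particular to the gained regions. The excess over all regions did not hold under 2 settings: with an equal number of peaks per list, gained regions were 35.3% and all regions 39.0% masked, and with a log2 fold of at least 1 they were 38.1% and 40.4%.

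**Figure D4:**
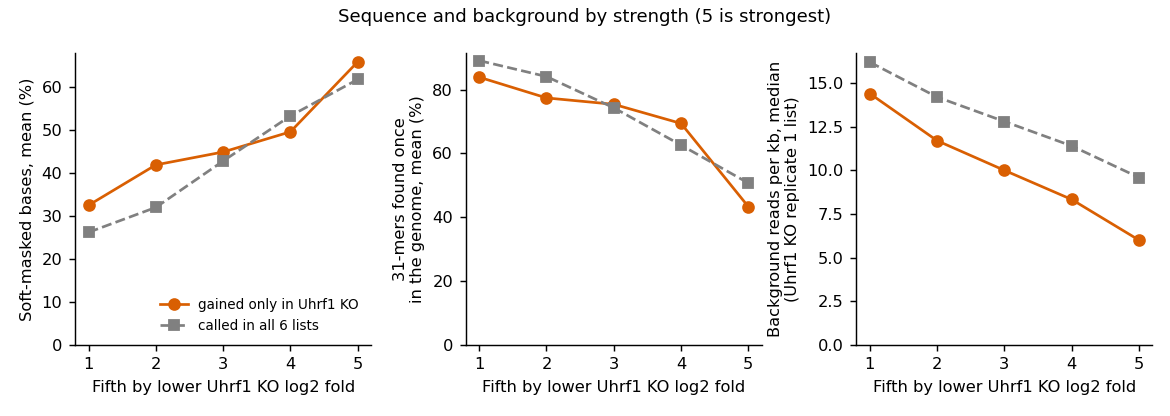
Mean soft-masked share (left), mean share of 31-base words found once in the genome (middle) and median background reads per kb in the *Uhrf1* KO replicate 1 list (right), by quintile of the lower *Uhrf1* KO log2 fold (x axis, 5 is strongest), for gained regions and regions called in all 6 lists. In both sets the strongest quintile has the most masked bases (65.9% and 61.8%) and the fewest background reads (6 and 9.59 per kb).

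The strongest regions of 2 kb or longer were almost wholly repeats. The region chr3:104976801-104979200, 14.9 kb from the start of *Wnt2b*, a Wnt ligand gene, had 15 ChIP and 1 background read in *Uhrf1* KO replicate 1 and 81 and 3 in replicate 2 (log2 folds 4.45 and 4.41). It was 100% masked with 28.8 CpG sites per kb, held an IAP primer site, and lay 4600 bp from the nearest wild-type or *Dhx9* KO peak. The region chr1:86318001-86320200, 15.2 kb from the start of *B3gnt7*, a glycosyltransferase gene, had 28 and 2 reads in replicate 1 and 92 and 4 in replicate 2 (log2 folds 4.35 and 4.18), and was likewise 100% masked with an IAP site. The 10 strongest were 81.9% to 100% masked, with at most 10.3% of their words found once in the genome. Both libraries had few background reads in all 10, from 1 to 9, so these folds rest on small counts. In 8 of them the centre lay between genes, and the other 2 were in introns of *Vmn2r38*, a vomeronasal pheromone receptor gene, and of *Gm9801*.

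Of the 5 longest regions, 3 lay in genes and had few masked bases. The longest, chr1:189776401-189786800, was 10400 bp over an intron and an annotated start of *Ptpn14*, a tyrosine phosphatase of the Hippo pathway, with 33 ChIP and 26 background reads in *Uhrf1* KO replicate 1 and 296 and 147 in replicate 2 (log2 folds 0.88 and 0.67). It was 21.6% masked. These lengths are those of the merged peaks, and no gained region had more than 6800 bp called in *Uhrf1* KO replicate 1. The next, chr18:69471201-69481400 in *Tcf4*, a helix-loop-helix factor gene, had log2 folds of 0.90 and 0.50, and chr1:127238801-127247000 in *Mgat5*, an N-glycan branching enzyme gene, had 1.47 and 0.28. The other 2 lay between genes and held more repeats: chr6:131192401-131200200 was 47.4% masked, with log2 folds of 1.56 and 0.71, and chr7:15035001-15042400 was 41.4% masked, with 1.77 and 1.88. The region with the most reads, chr12:115200201-115207200, had 392 ChIP and 167 background reads in replicate 1 and 252 and 149 in replicate 2 (log2 folds 1.93 and 0.41). In this region, which lies between genes, the 2 libraries were far apart beside the median difference of 0.35.

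Most gained regions lay between genes. The centre was between genes in 767 (66%), in an intron in 323 (27.8%), in a promoter in 48 (4.13%) and in an exon in 25 (2.15%). Over all merged regions, introns held 35.9%, promoters 6.42% and exons 3.37%. Between genes lay 54.3% of all merged regions, 61.4% of those called in all 6 lists and 67.3% of those gained in both knockouts. The share was 56.1% of those gained only in *Dhx9* KO and 44.3% of those lost only in *Uhrf1* KO. With an equal number of peaks per list the order turned, to 56.5% of gained and 57.2% of all merged regions. The median distance to the nearest peak of any wild-type or *Dhx9* KO list was 3200 bp. Within 5 kb, 717 regions (61.7%) had such a peak in at least 1 list, 458 a region of both wild-type lists, and 342 (29.4%) a region called in all 6. With an FDR of at most 1e-10 in all lists the first share was 47.5%. At the other end, 98 regions (8.43%) were over 20 kb from any such peak. These distances and shares were not computed over all merged regions or other sets. Whether they are particular to the gained regions was therefore not tested. The farthest of 2 kb or longer, chr2:141100801-141103800, lay in an intron of *Macrod2*, a macrodomain hydrolase gene, 110400 bp from such a peak. It held an L1MdTf site, with 43 ChIP and 32 background reads in *Uhrf1* KO replicate 1 and 59 and 8 in replicate 2 (log2 folds 0.97 and 2.54).

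Among genes, 291 gained regions (25%) overlapped 289 protein-coding genes, or 1.39% of the 20780 on the autosomes. These genes were long, with a median of 141 kb against 17.2 kb for the others. In each of 19 genes lay 2 gained regions, and in none lay 3. *Vmn2r38* held 2, with log2 folds of 2.3 and 3.43 in replicate 1, and *Klra1*, which encodes a Ly49 receptor of natural killer cells, held 2, with folds of 1.09 and 1.33.

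Promoters of protein-coding genes, taken as 1 kb on each side of a start, were overlapped by 38 gained regions (3.27%), a share not computed over all merged regions. The strongest was chr7:32441001-32442400 at *Scgb1b29*, with 20 ChIP and 3 background reads in *Uhrf1* KO replicate 1 and 61 and 5 in replicate 2 (log2 folds 3.28 and 3.26). Only 7.69% of its 31-base words were found once in the genome, though just 8.50% of it was masked. Reads from other copies can thus be placed there. Next was chr1:50900001-50900800 at *Tmeff2*, with 19 and 6 reads in replicate 1 and 36 and 6 in replicate 2 (log2 folds 2.20 and 2.24). The promoter regions of *Olfr724* and *Olfr1294*, both olfactory receptor genes, had lower folds of 1.90 and 1.88. Those of *Zfp354a*, a KRAB zinc finger gene, and *Vmn1r70*, a vomeronasal receptor gene, had lower folds of 1.80 and 1.68, that of *Tenm2*, a teneurin gene, 1.74, and that of *Ppp3ca*, a calcineurin subunit gene, 1.59.

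The counts by gene list were small. None of the 55 imprinted genes, 24 pluripotency genes or 34 genes of the H3K9 and DNA methylation machinery on the autosomes overlapped one, beside 1.39% of all protein-coding genes, a share so low that lists of this length would hold about 1 gene or none. Of 44 germline genes, which CpG methylation silences in somatic cells, 1 did: *Asz1*, a piRNA pathway gene, whose promoter lay in chr6:18108201-18110400, with 34 ChIP and 26 background reads in replicate 1 and 51 and 11 in replicate 2 (log2 folds 0.93 and 1.87). Of 34 genes expressed at the two-cell stage, *Zfp277* and *Zscan4a* did, with lower folds of 2.93 and 1.62. The *Zfp277* and *Zscan4a* regions were 100% and 44.3% masked, with 2.56% and 28.2% of their words found once in the genome. Reads from other copies can thus be placed there. The *Zfp277* region, of 600 bp, had 4 background reads in each library, so its fold rests on small counts. The germline and two-cell shares, 2.27% and 5.88%, rest on 1 and 2 genes.

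Of 50 large neuronal adhesion and synapse genes, 13 (26.0%) overlapped a gained region, and those with the highest lower folds, named after their values were seen, were *Lsamp*, a cell adhesion gene, with log2 folds of 2.45 and 2.87, and *Cntn5*, a contactin gene, with 2.41 and 2.71. The *Lsamp* and *Cntn5* regions were 98.2% and 77.0% masked, with 7.69% and 10.3% of their words found once in the genome. Reads from other copies can thus be placed there. Their background reads were 4 and 6 in each library, so these folds rest on small counts. In the regions next in lower fold, in *Cntn4*, *Adgrb3* and *Tenm2*, 56.4%, 100% and 100% of words were found once. Genes of this list are long, as were the genes with a gained region in general. Among families, 8 of 119 vomeronasal type 2 receptor genes (6.72%) and 4 of 26 killer cell lectin-like receptor genes (15.4%) overlapped a gained region. The same held for 7 of 404 zinc finger genes (1.73%) and 3 of 1127 olfactory receptor genes (0.266%). Over all protein-coding genes the share was 1.39%, near that of the zinc finger genes. Counts were 0 of 110 keratin, 0 of 100 cytochrome P450 and 0 of 39 *Hox* genes. Those lists are so short that a count of 0 is little different from the share over all genes. All 7 of the 56 clustered protocadherin genes with a gained region overlapped the same single one.

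Gained regions were spread thinly, with local clusters. They fell in 739 windows of 1 Mb, 505 of which held 1. The highest count was in the window of chromosome 6 from 130000001 to 131000000, with 14 gained regions of 71 with both *Uhrf1* KO peaks, in a cluster of 8 Ly49 receptor genes that includes *Klra1* and *Klra10*. Next were 11 on chromosome 13 from 87000001 to 88000000, where no protein-coding gene lies, and 10 on chromosome 7 from 10000001 to 11000000, among vomeronasal receptor genes and *Zscan4b*. Also 10 lay on chromosome 16 from 76000001 to 77000000, beside *Nrip1* and *Samsn1*, and 9 on chromosome 12 from 114000001 to 115000000, among 49 immunoglobulin heavy chain variable segments.

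As a share of the regions with a peak in both *Uhrf1* KO lists, gained regions made up 2.52% on all autosomes, from 0.921% on chromosome 4 to 3.48% on chromosome 16. The shares on chromosomes 8 and 11 were 1.27% and 1.33%. The median background of *Uhrf1* KO replicate 2 over that of wild-type replicate 1 ranged from 0.571 to 0.625 between chromosomes, and its Spearman correlation with the share was -0.27 over the 19 chromosomes. The same ratio of ChIP reads ranged from 0.903 to 1.06, and was lowest on chromosomes 8 (0.903) and 11 (0.909), while chromosome 4 had 1.03. The part of these ratios in the shares was not tested.

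**Figure D5:**
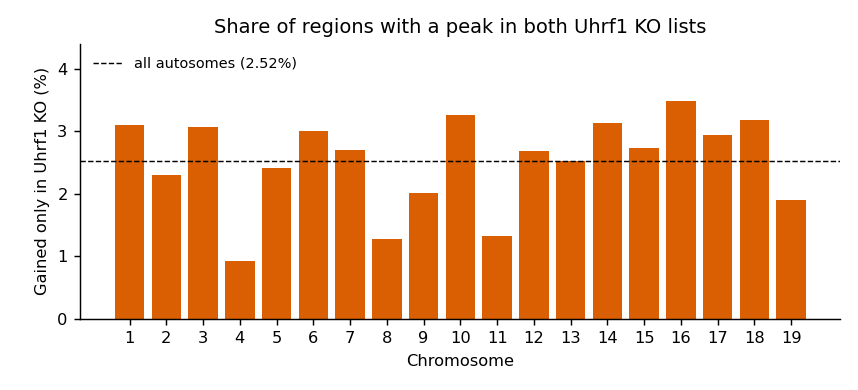
Gained regions as a percent of the regions with a peak in both *Uhrf1* KO lists (y axis) for each autosome (x axis), with a dashed line at the share over all autosomes, 2.52%. Chromosomes 4, 8 and 11 are lowest, at 0.921%, 1.27% and 1.33%, and chromosome 16 is highest, at 3.48%.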

How the data were processed

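Per the study's methods, the authors aligned single-end reads to mm10 with Bowtie2 2.3.4.3, took a subsample of each library and ran epic2 on it with duplicates left in. For every peak, the deposited files hold the authors' ChIP count and background count, the caller's p-value and its false discovery rate (FDR), a score, and a log2 fold in which library sizes are accounted for. The deposited p-values and scores gave no value here, and no p was computed. The deposited gene annotation with the reporter was not used.

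Peaks were merged with Python 3.11.15, numpy 2.4.6 and pandas 2.3.3, and the merging and selection were tested on simulated data. Where a region held several peaks of a list, reads were summed and the highest log2 fold was taken. Positions are 1-based. Promoters (1 kb on each side of a start), exons and introns come from GENCODE M21, and sequence and soft masking from the RefSeq copy of GRCm38. Words of 31 bases were counted over the genome in a 1000-bp window at each centre. Regions were matched to each other with BLAST+ 2.17.0. Primers were taken from the study's oligonucleotide list. Counts cover counting error only.

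Regions named are the 10 of 2 kb or longer with the highest lower log2 fold, the 5 longest, the 5 with most reads, the 10 strongest at coding promoters, the 5 farthest from other peaks, 5 windows, up to 10 genes with most regions, and up to 5 regions for each gene list, of which the text gives the leading ones. The regions and lists were chosen with earlier results of these data known, and the L1MdTf and IAP shares, the shared stretches and their alternatives after seeing the data. Alternatives were stricter peak filters, equal numbers of peaks, other merging rules and leaving out each library.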

Additional observations from a re-analysis of the deposited data

How the results depend on the processing

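No paired analysis was possible because the result comes from no test. The number of gained regions was 3244 with a log2 fold of at least 1, 3709 with an equal number of peaks per list, 439 with an FDR of at most 1e-10 in the *Uhrf1* KO lists and 446 with no other peak within 5 kb, and without each library it ranged from 1415 to 6301. Mean GC was 42.8% with an FDR of at most 1e-10 in all lists or in the *Uhrf1* KO lists, 44.1% with a log2 fold of at least 1, 44.4% with equal numbers, 43.5% with no other peak within 5 kb and 42.9% for regions of at least 1 kb, and 41.2% to 46.0% without each library, the highest without *Uhrf1* KO replicate 1 and above the 45.5% of all merged regions. The masked share was 38.1% with a log2 fold of at least 1, 54.9% with the stricter *Uhrf1* KO lists and 35.3% with equal numbers, and 46.4% to 49.3% without each library. The share between genes was 59.6%, 74.9% and 56.5% under these 3 settings, the last below the 57.2% of all merged regions, 62.8% with no other peak within 5 kb, and 59.0% to 70.5% without each library. The share within 5 kb of another peak was 47.5% with an FDR of at most 1e-10 in all lists, 53.9% with a log2 fold of at least 1, 56.9% with the stricter *Uhrf1* KO lists, 56.7% with equal numbers and 50.7% with peaks up to 1 kb apart merged, and 56.2% to 64.5% without each library. The L1MdTf share was 2.15%, 2.44%, 1.82%, 2.24% and 5.83% with an FDR of at most 1e-10 in all lists, a log2 fold of at least 1, the stricter *Uhrf1* KO lists, equal numbers and no other peak within 5 kb, and 0.952% to 5.31% without each library. All merged regions had 1.45%, 1.26% and 1.16% in the first, the second and the equal-number setting. The IAP LTR share was 1.33%, 4.56% and 1.05% with a log2 fold of at least 1, the stricter *Uhrf1* KO lists and equal numbers, beside 1.35% and 1.24% of all merged regions in the first and last of these, and 0.492% to 2.81% without each library. The cause of these changes was not tested. Of 97 values, 53 stayed within 1.5 times (counts) or the 95% interval (means and shares) of the value reported. That interval was taken over regions as if they were independent, so it does not cover the spread between libraries.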

Other observations

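The sex chromosomes were not part of the regions described above. By the same rule, 115 regions on chromosome X had a peak in both *Uhrf1* KO lists and in no other, or 8.02% of the 1434 with both *Uhrf1* KO peaks, beside 2.52% on the autosomes and at most 3.48% on any of them. On chromosome Y there were 25 of 173, or 14.5%. The median background of *Uhrf1* KO replicate 2 over that of wild-type replicate 1 was 0.598 on X and 0.647 on Y, beside 0.571 to 0.625 on the autosomes.

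The hexamer TGCCGC, which the zinc finger protein ZFP57 binds when it is methylated, was searched on both strands in the 1000-bp window at each centre. It was found in 119 gained regions (10.2%), beside 8.07% of all merged regions, 10.1% of those called in all 6 lists, 5.32% of those gained in both knockouts and 8.37% of those lost only in *Uhrf1* KO.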
